A study of Mus musculus with 36 samples.

Results

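Enteric glial cells (EGCs) were examined for 9 genes of the tumor necrosis factor (TNF) superfamily, namely the ligands Tnf and Tnfsf9 and the receptors Tnfrsf1a, Fas, Tnfrsf10b, Tnfrsf1b, Tnfrsf9, Tnfrsf12a and Tnfrsf11b. The members were chosen by name, with earlier results of these data known, as 9 of the 43472 rows of the count table. The cells were primary WT mouse EGCs grown as neurospheres from the embryonic intestine and then differentiated in medium with serum, so no adult glia were measured. They were left unstimulated, or were given medium conditioned by cells of digested healthy colon (H-CM) or by cells of digested orthotopic MC38 tumors (TME-CM), where MC38 is a mouse colorectal cancer cell line. RNA was collected at 6, 12 and 24 h with 4 libraries in each of the 9 groups, 36 in all, and the question was how the tumor medium changes the transcriptome of the glia. The sources used here do not say whether the 4 libraries of a group came from separate cultures, so the p-values measure the spread between these samples, which may be technical.

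TNF superfamily ligands are mostly trimers at the cell surface or shed from it, and they bring together receptors on the responding cell. Receptors with an intracellular death domain (Tnfrsf1a, Fas, Tnfrsf10b) can assemble caspase-activating complexes, whereas receptors without one (Tnfrsf1b, Tnfrsf9, Tnfrsf12a) recruit TRAF adaptors and activate NF-kB. Tnfrsf11b, osteoprotegerin, is secreted and acts as a decoy that binds its ligands away from the cell. In the intestine, TNF is best known as a driver of inflammation and as a drug target in inflammatory bowel disease.

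The libraries were 3′ mRNA libraries, in which a read marks the end of a transcript and counts are not scaled by transcript length. Totals ranged from 13518 to 5244763 counts at 6 h, from 2005239 to 5961933 at 12 h and from 1608018 to 7552509 at 24 h, and the gene listed as Yam1 took 10.97% to 48.6% of a library. H-CM replicate 4 at 6 h (13518 counts) and unstimulated replicate 3 at 6 h (256453 counts) were the 2 libraries under 300000 counts, and the common dispersion fell from 0.572 at 6 h over 0.122 to 0.0455 at 24 h. The 5 enteric glial markers followed (Sox10, S100b, Gfap, Erbb3, Foxd3) summed to between 116 and 239 CPM (counts scaled to a common library size) in every library of 12 and 24 h, and by edgeR none of those tested was called between conditions at any time, with at most 1 at an unadjusted p under 0.05. The 8 immune markers summed to between 37.2 and 459 CPM over all libraries, and 3 epithelial markers to at most 6.85 CPM. Markers of other cells of the gut wall were higher than those of glia, with sums from 1260.1 to 8577 CPM for 5 smooth muscle markers and from 1187 to 6552 CPM for 4 mesenchymal ones (Pdgfra, Wt1, Col1a1, Dcn).

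Library sizes were scaled by TMM (trimmed mean of M-values), and differences were tested with edgeR's quasi-likelihood test in 1 model per time point, with Benjamini-Hochberg adjustment over all genes tested and a call at an adjusted p under 0.05. The filter on low counts kept 7 of the 9 members at 12 h and at 24 h and 5 at 6 h. Tnf and Tnfsf9 were kept at none of the times, and Fas and Tnfrsf9 were not kept at 6 h. The 3 comparisons of a time point share libraries, so their fold changes are given side by side and not as separate evidence.

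Tnfrsf9 and Fas were higher in TME-CM EGCs than in H-CM EGCs at 24 h, by 4.00 ± 0.66 and 1.78 ± 0.49 on the log2 scale (± standard error), and Tnfrsf11b was lower in both stimulated groups than in unstimulated EGCs. These 2 receptors were the members called between TME-CM and H-CM at 24 h, 2 of the 7 tested, where 5.4% of the 12713 genes tested were called. Because the members were chosen with earlier results known, the shares of all genes given here are a scale and test no enrichment. At 12 h, 0 of the 7 members tested were called in this comparison by edgeR, beside 1.89% of all genes tested. At an unadjusted p under 0.05 by edgeR were 3 members and 1288 of 12156 genes. DESeq2 called 1 member and 375 genes in all. At 6 h, 0 of the 5 tested by edgeR and 0 of the 6 tested by DESeq2 were called. Of all genes, edgeR called 0.0972%, and DESeq2 called 19 genes. At an unadjusted p under 0.05 by edgeR were 2 members and 562 of 9256 genes. Compared to unstimulated EGCs, 3 of 7 members were called in TME-CM EGCs at 12 h (background 4.41%) and 5 of 7 at 24 h (9.52%), while in H-CM EGCs Tnfrsf11b was the 1 member called at 12 h (0.403%) and at 24 h (2.03%). DESeq2 called 4 of 8 members at 12 h and 5 of 9 at 24 h in TME-CM EGCs, beside 705 and 1374 genes in all. In H-CM EGCs it called 1 of 7 members at each of these times, beside 99 and 412 genes in all. At 6 h, 0 of 5 members were called against unstimulated EGCs by edgeR in TME-CM (background 0.454%) or in H-CM (background 0%). DESeq2 called 0 of 7 and 0 of 9, beside 97 and 0 genes in all. At an unadjusted p under 0.05 by edgeR was 1 member in each, beside 573 and 58 of 9256 genes. In 1 model of all 36 libraries, the calls that held were those of Tnfrsf11b in TME-CM against unstimulated EGCs at 12 h and 24 h, of Fas in this comparison at 12 h and of Tnfrsf9 in it at 24 h.

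**Figure D1:**
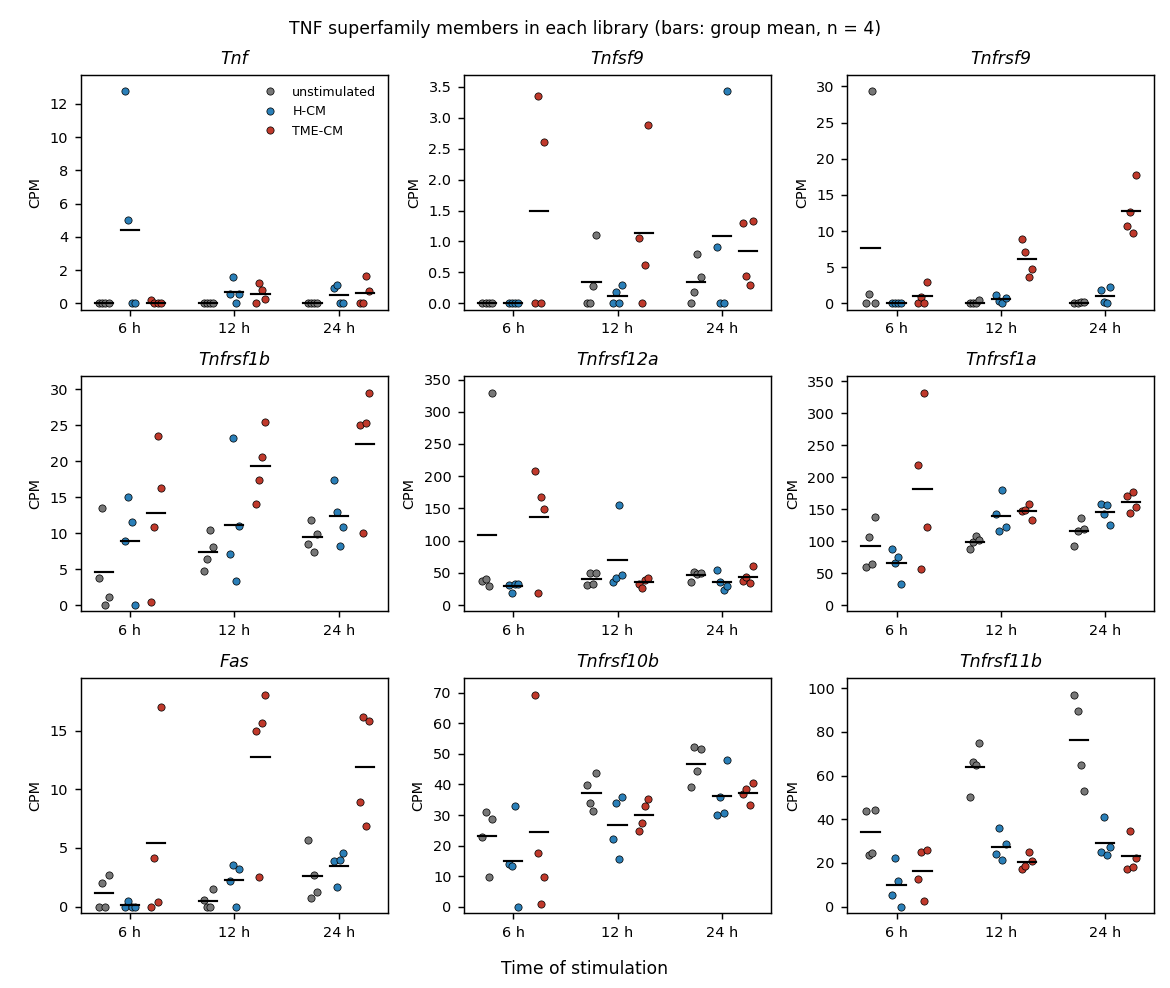
Normalised expression (CPM, vertical axes) of the 9 members in each library against the time of stimulation, with points for single libraries colored by condition and bars for the mean of 4 libraries. The TME-CM libraries lie apart from the other points in the Tnfrsf9 panel at 12 and 24 h, and the unstimulated libraries do so in the Tnfrsf11b panel.

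**Figure D2:**
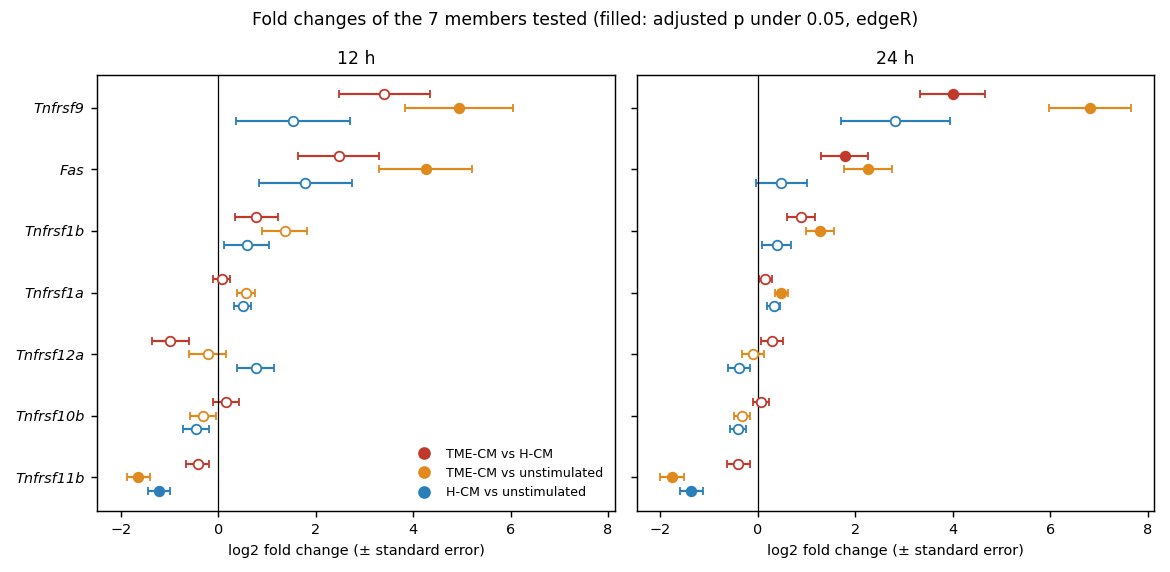
Log2 fold changes with standard errors of the 7 members tested at 12 h and 24 h in the 3 comparisons, filled where the adjusted p is under 0.05. Tnfrsf9 and Fas are filled for TME-CM over H-CM at 24 h, and Tnfrsf11b is filled on the negative side for both media over unstimulated EGCs.

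Reads of the ligand genes were few. Tnf, the cytokine that gives the family its name, lies on the minus strand at chr17:35199381-35202007 (GRCm38). No read was assigned to Tnf in any of the 12 unstimulated libraries, which together hold 45215608 counts and so allow up to 0.0663 CPM (3 counts, counting error only, as for all such limits here). In H-CM EGCs 46 reads were found, namely 10, 11, 0 and 0 in replicates 1 to 4 at 6 h, then 2, 9, 0 and 4 at 12 h, then 4, 6, 0 and 0 at 24 h. In TME-CM EGCs there were 24, namely 1, 0, 0 and 0 at 6 h, then 0, 3, 4 and 1 at 12 h, then 0, 0, 11 and 4 at 24 h. Reads were thus present in 7 of 12 H-CM and 6 of 12 TME-CM libraries, and at each time at least 1 library of both stimulated groups was at 0 like the unstimulated ones. Without the filter on low counts, the adjusted p of Tnf in TME-CM against unstimulated EGCs at 24 h was 0.0735 with edgeR, and DESeq2 gave 0.260. Against H-CM, edgeR gave 0.414 at 6 h, 1 at 12 h and 0.997 at 24 h.

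Tnfsf9, the ligand of Tnfrsf9 (chr17:57105325-57107757, plus strand), had 55 reads in TME-CM EGCs, 18 in unstimulated EGCs and 13 in H-CM EGCs, found in 9, 5 and 4 of 12 libraries. Among the TME-CM libraries, the reads of replicates 1 to 4 were 0, 4, 0 and 14 at 6 h, then 5, 0, 3 and 11 at 12 h, then 8, 1, 2 and 7 at 24 h. The 8 libraries of the other conditions had no read of it at 6 h, and at 12 h and 24 h the groups overlapped. Without the filter, edgeR gave TME-CM against H-CM an adjusted p of 0.536 at 6 h, a log2 difference of 2.85 (adjusted p = 0.561) at 12 h and one of -0.02 (adjusted p = 1) at 24 h. The gene shares 192 exon bases with Gm11110 on the opposite strand, and as the strand setting of the counting was not found, reads of the pair cannot be told apart.

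Tnfrsf9 encodes CD137, a costimulatory receptor known from activated T cells, and lies on the plus strand at chr4:150914562-150946102 with 11 annotated exons. At 24 h, the TME-CM libraries of replicates 1 to 4 had 10.7, 12.7, 9.75 and 17.7 CPM (66, 29, 64 and 93 reads), the H-CM libraries 1.81, 0.183, 0 and 2.28 CPM (8, 1, 0 and 4 reads), and the unstimulated libraries 0, 0, 0.160 and 0.140 CPM (0, 0, 1 and 1 read). Every TME-CM library stood above every library of the other groups, as did 5.47% of the genes tested over H-CM and 6.65% over unstimulated EGCs. The filter on low counts kept Tnfrsf9 at 12 h and at 24 h only through its TME-CM libraries. Its tests and these separations are therefore not independent of the high TME-CM reads. The mean rose to 12.7 ± 3.54 CPM (SD, n = 4) in TME-CM EGCs from 1.07 ± 1.15 in H-CM EGCs, a log2 difference of 4.00 ± 0.66 with an adjusted p of 0.000551 (edgeR), and it was called with each library left out in turn. In 1 model of all 36 libraries the adjusted p was 0.427.

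At 12 h, Tnfrsf9 measured 8.84, 7.04, 3.71 and 4.72 CPM with TME-CM, 1.10, 0.358, 0 and 0.739 with H-CM, and 0, 0, 0 and 0.416 in unstimulated EGCs. The TME-CM libraries were again all higher than the others, as for 4.01% of the genes tested over H-CM and 5.82% over unstimulated EGCs, but the difference from H-CM of 3.41 ± 0.93 missed the threshold, with an adjusted p of 0.0699 by edgeR and 0.00829 by DESeq2. Over unstimulated EGCs, Tnfrsf9 was called at both times, with an adjusted p of 0.00767 at 12 h and 5.5e-06 at 24 h. The unstimulated libraries held 3 and 2 reads at these times, and the ratio of summed read shares was 29.3 at 12 h (exact 95% counting interval 9.72 to 145) and 140 at 24 h (38.5 to 1166). H-CM EGCs differed from unstimulated EGCs by 2.82 ± 1.11 at 24 h, which was not called (adjusted p = 0.306).

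At 6 h, Tnfrsf9 had too few reads for the test: 0, 1, 0 and 16 in TME-CM, 0 in each H-CM library, and 0, 2, 6 and 0 in unstimulated EGCs. The 6 reads of the unstimulated library with 256453 counts gave 29.3 CPM, the highest single value of the gene, and the groups overlapped. In the order of group means, TME-CM at 24 h was followed by unstimulated at 6 h (7.66 ± 14.4), which this library sets, and by TME-CM at 12 h (6.08 ± 2.31). TME-CM at 12 h was the only step in this order at which a group did not overlap the next one, H-CM at 24 h. From 12 h to 24 h in TME-CM EGCs, the log2 difference was 0.93 ± 0.67 with an adjusted p of 0.821.

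Since Tnfrsf9 is known from T cells, the 8 immune markers are given beside it. Their sum ranged from 52.9 to 211 CPM in unstimulated, 82.2 to 342 in H-CM and 70.6 to 364 in TME-CM EGCs at 24 h, and 0 of the 7 markers tested were called by edgeR in any of the comparisons within a time point, with at most 1 at an unadjusted p under 0.05. The most abundant of them, Lyz2, averaged 149 CPM in TME-CM and 158 CPM in H-CM EGCs at 24 h. Cd3e, the defining T cell marker of the list, was at 0 in the 4 TME-CM libraries and had 1 read each in the H-CM and the unstimulated group. These reads are too few to compare the groups, and the part of immune cells in the values of Tnfrsf9 was not tested.

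Mesenchymal markers were in part higher with TME-CM than with H-CM. Of the 4, Dcn and Pdgfra were called higher than in H-CM EGCs at 24 h (1.21 ± 0.13, adjusted p = 4.89e-06, and 0.93 ± 0.18, adjusted p = 0.00193, edgeR) and Dcn at 12 h (1.18 ± 0.17, adjusted p = 0.000622), while Col1a1 and Wt1 were not called. The median of the 4 was 0.69 at 24 h and 0.30 at 12 h. The sum of the 4 markers at 24 h was 5069 to 6552 CPM with TME-CM, 3854 to 4769 CPM with H-CM and 4576 to 6246 CPM without stimulation. The part of these markers in the values of Tnfrsf9 and Fas was not tested.

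The starts of Tnfrsf9 and Fas are shown because these are the members called between the tumor and the healthy medium. RefSeq windows of 250 bases before and 50 after a start (GRCm38.p6) were found for 6 of the 9 members, 7 windows in all, and capitals mark matches to the NF-kB motif and to the AP-1 motif TGANTCA, searched on both strands. The counts come from 3′ ends and do not show which start was used.
Tnfrsf9, chr4:150919905-150920204, plus strand: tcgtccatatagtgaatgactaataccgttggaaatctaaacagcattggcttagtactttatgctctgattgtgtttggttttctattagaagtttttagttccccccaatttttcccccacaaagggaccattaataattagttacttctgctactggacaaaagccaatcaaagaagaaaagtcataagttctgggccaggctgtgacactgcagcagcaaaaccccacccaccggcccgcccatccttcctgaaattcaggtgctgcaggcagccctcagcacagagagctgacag
Tnfrsf9, chr4:150927749-150928048, plus strand: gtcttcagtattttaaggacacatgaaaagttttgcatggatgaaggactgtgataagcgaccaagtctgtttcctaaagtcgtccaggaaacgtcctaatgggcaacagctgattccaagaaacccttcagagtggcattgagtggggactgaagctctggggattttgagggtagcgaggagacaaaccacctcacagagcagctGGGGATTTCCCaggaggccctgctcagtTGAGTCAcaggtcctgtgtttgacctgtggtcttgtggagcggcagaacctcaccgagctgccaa
Fas, chr19:34290409-34290708, plus strand: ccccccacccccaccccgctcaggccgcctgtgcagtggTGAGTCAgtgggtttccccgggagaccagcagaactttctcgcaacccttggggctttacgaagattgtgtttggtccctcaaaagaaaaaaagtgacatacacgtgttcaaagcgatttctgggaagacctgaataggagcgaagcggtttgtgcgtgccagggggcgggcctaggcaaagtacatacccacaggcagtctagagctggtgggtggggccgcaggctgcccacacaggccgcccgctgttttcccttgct
Both Tnfrsf9 windows lie downstream of the first annotated base of the gene, chr4:150914562, which neither covers. The first Tnfrsf9 window held neither motif. The second held 2 overlapping NF-kB matches, GGGGATTTCC and GGGATTTCCC, from 43 to 33 bases before the start, and 1 AP-1 match, TGAGTCA, from 15 to 9 bases before it. The Fas window held 1 AP-1 match, TGAGTCA, from 211 to 205 bases before the start, and no NF-kB match. The windows of Tnfrsf1a, Tnfrsf1b, Tnfrsf12a and Tnf held neither. The motifs TTCNNNGAA (GAS) and TATAAA were also searched and are not marked. GAS matched in the second Tnfrsf9 window and in those of Fas, Tnfrsf1a and Tnfrsf1b, as in 8.3% of all windows. TATAAA matched in the Tnf window, as in 13.6% of all windows. Among 32851 windows of the same 300 bases, 8.46% held the NF-kB motif and 7.81% the AP-1 motif. A match therefore describes these letters and does not by itself show a binding site, and binding was not measured.

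Fas, the death receptor that triggers apoptosis when bound by Fas ligand, lies at chr19:34290666-34327772 on the plus strand. At 24 h it had 8.94, 16.1, 6.86 and 15.8 CPM with TME-CM, 3.85, 1.65, 3.94 and 4.56 with H-CM, and 5.71, 0.728, 2.73 and 1.26 in unstimulated EGCs. The 4 TME-CM libraries exceeded all of the other 8, as for 5.47% of the genes tested over H-CM and 6.65% over unstimulated EGCs, while H-CM and unstimulated libraries overlapped. The rise over H-CM was 1.78 ± 0.49 with an adjusted p of 0.0310, and over unstimulated EGCs 2.26 ± 0.49 with an adjusted p of 0.00326 (edgeR). The call against H-CM was lost without H-CM replicate 1 (adjusted p = 0.0517), 2 (0.133), 3 (0.0812) or 4 (0.0537) and without TME-CM replicate 2 (0.0639) or 4 (0.115), as well as in 1 model of all 36 libraries (1), with differences between 1.53 and 1.98 over the libraries left out.

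At 12 h, Fas measured 14.9, 2.49, 15.7 and 18.1 CPM with TME-CM, 2.20, 3.58, 0 and 3.25 with H-CM, and 0.526, 0, 0 and 1.53 in unstimulated EGCs. TME-CM replicate 2 fell within the H-CM range, and the other 3 TME-CM libraries stood above it. The difference from H-CM of 2.47 ± 0.83 was not called (adjusted p = 0.184, and 0.0164 without the filter), whereas that from unstimulated EGCs of 4.25 ± 0.96 was (adjusted p = 0.00897, edgeR). At 6 h, reads were found in 3 of 4 TME-CM libraries (0, 5, 1 and 91 reads), in 1 of 4 H-CM and in 2 of 4 unstimulated libraries. Fasl, the gene of its ligand, was not kept by the filter and had no read in the TME-CM libraries of 12 h and 24 h.

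Tnfrsf1b encodes TNFR2, the TNF receptor without a death domain (minus strand, chr4:145213463-145246870). At 24 h, its values were 25.0, 10.03, 25.3 and 29.5 CPM with TME-CM, 17.4, 13.0, 8.26 and 10.8 with H-CM, and 8.56, 11.8, 7.38 and 9.94 in unstimulated EGCs. TME-CM replicate 2 lay within the range of both other groups, and the remaining 3 TME-CM libraries lay above them. Tnfrsf1b was called over unstimulated EGCs (1.28 ± 0.29, adjusted p = 0.00420, edgeR) and not over H-CM (0.89 ± 0.29, adjusted p = 0.0794, and 0.0165 without the filter), where leaving out TME-CM replicate 2 gave 1.10 with an adjusted p of 0.00695 and leaving out H-CM replicate 1 gave 1.12 with 0.0332. At 12 h, all 4 TME-CM libraries (14.1, 17.4, 20.6 and 25.4 CPM) were above the 4 unstimulated ones (4.73, 6.42, 10.4 and 8.05 CPM), as for 5.82% of the genes tested. The edgeR test there did not pass, with an adjusted p of 0.128 for 1.36 ± 0.46. Apart from leaving out single libraries, 2 of 7 alternative settings called it.

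Tnfrsf12a, the receptor Fn14 of the cytokine TWEAK (minus strand, chr17:23675445-23677468), was called in none of the comparisons with the filter on low counts and 1 model per time point, and single libraries stood far from their groups. At 6 h it had 37.1, 41.0, 29.3 and 329.0 CPM in unstimulated, 30.6, 19.2, 32.9 and 32.7 in H-CM, and 208, 18.4, 168 and 150 in TME-CM EGCs. Replicate 4 thus set the unstimulated mean, and 3 of 4 TME-CM libraries were above all H-CM libraries while replicate 2 was below them. The 32.7 CPM of H-CM replicate 4 came from 1 read. The difference between TME-CM and H-CM was 2.30 ± 0.82 with an adjusted p of 0.716 (0.0102 without the filter and 0.0266 in 1 model of all 36 libraries), beside a median of 0.13 over all genes tested at 6 h. In the 4 libraries of 6 h with the highest Tnfrsf12a, Yam1 took 10.97% to 14.2% of the counts, against 19.99% to 48.6% in the other 8, and the part of that share in the result was not tested.

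At 12 h, H-CM replicate 3 had 155 CPM of Tnfrsf12a against 36.03 to 46.8 in the other H-CM libraries. TME-CM libraries had 26.1 to 42.2 CPM and unstimulated ones 31.0 to 50.4, so the groups overlapped. TME-CM was lower than H-CM by a log2 difference of -0.98 ± 0.37 that was not called (adjusted p = 0.293, and 0.00622 without the filter), and of -0.26 without that library. At 24 h all groups overlapped, with means of 43.6 ± 11.7 in TME-CM, 35.6 ± 13.8 in H-CM and 46.3 ± 6.84 CPM in unstimulated EGCs. Tnfsf12, the gene of TWEAK, was not called in these comparisons either (0.54 ± 0.21 for TME-CM over H-CM at 24 h, adjusted p = 0.185).

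Tnfrsf1a encodes TNFR1, the death domain receptor that most cells carry (plus strand, chr6:125349362-125362484). At 24 h, its values were 171, 144, 177 and 154 CPM with TME-CM, 158, 143, 157 and 126 with H-CM, and 92.7, 115, 136 and 119 in unstimulated EGCs. The TME-CM libraries were all above the unstimulated ones, which 6.65% of the genes tested were, and the H-CM libraries overlapped both groups. The rise over unstimulated EGCs was small, 0.48 ± 0.13 with an adjusted p of 0.0218 (edgeR), and it was not called without unstimulated replicate 1 (0.0516) or 2 (0.0574), without TME-CM replicate 1 (0.0694) or 3 (0.0826), or in the model of these 2 groups alone (0.0501). TME-CM and H-CM differed by 0.15 ± 0.13 (adjusted p = 0.674).

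At 12 h, the mean of Tnfrsf1a was 146 ± 10.4 CPM in TME-CM, 140 ± 28.8 in H-CM and 98.7 ± 8.42 in unstimulated EGCs, with every stimulated library above every unstimulated one, as for 5.82% of the genes tested in TME-CM and 2.19% in H-CM. Neither difference from unstimulated EGCs was called by edgeR, with an adjusted p of 0.0828 for TME-CM (0.57 ± 0.18) and of 0.607 for H-CM (0.50 ± 0.18). Apart from leaving out single libraries, 2 of 7 alternative settings called that of TME-CM and 0 of 7 that of H-CM. At 6 h, TME-CM values spread from 56.9 to 332 CPM and overlapped both other groups.

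Tnfrsf10b, the mouse receptor of the death ligand TRAIL (plus strand, chr14:69767472-69784411), was called in none of the comparisons by edgeR or DESeq2. At 24 h it had 36.9, 38.4, 33.4 and 40.3 CPM with TME-CM, 30.1, 36.05, 30.8 and 47.9 with H-CM, and 39.1, 52.2, 44.3 and 51.5 in unstimulated EGCs. The groups overlapped, with stimulated means below the unstimulated one. The log2 difference from unstimulated EGCs was -0.34 ± 0.16 for TME-CM (adjusted p = 0.273) and -0.40 ± 0.17 for H-CM (adjusted p = 0.341). At 12 h the means of TME-CM, H-CM and unstimulated EGCs were 30.02 ± 4.75, 26.8 ± 9.65 and 37.3 ± 5.68 CPM, and at 6 h single libraries ranged from 0 to 69.4 CPM.

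Tnfrsf11b, the decoy osteoprotegerin that binds the ligands RANKL and TRAIL (minus strand, chr15:54250619-54278484), was the member that fell. At 24 h, unstimulated EGCs had 97.0, 89.7, 65.0 and 52.8 CPM, H-CM EGCs 25.1, 41.0, 23.7 and 27.4, and TME-CM EGCs 17.4, 34.5, 18.1 and 22.3. All unstimulated libraries were above all stimulated ones, as for 4.07% of the genes tested against H-CM and 6.43% against TME-CM, and H-CM and TME-CM overlapped. The log2 difference from unstimulated EGCs was -1.76 ± 0.24 for TME-CM (adjusted p = 2.7e-05, edgeR) and -1.37 ± 0.23 for H-CM (adjusted p = 0.00249). Between the media the difference was -0.40 ± 0.24 and not called (adjusted p = 0.476).

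The fall of Tnfrsf11b was also measured at 12 h, with 49.95, 66.3, 64.8 and 74.9 CPM in unstimulated, 23.9, 35.8, 21.4 and 28.8 in H-CM, and 17.0, 18.6, 25.2 and 21.0 in TME-CM EGCs. Again no stimulated library reached an unstimulated one, as for 4.77% of the genes tested in TME-CM and 1.75% in H-CM. TME-CM differed by -1.65 ± 0.24 (adjusted p = 0.000111, edgeR) and H-CM by -1.22 ± 0.23 (adjusted p = 0.0171). The H-CM call was lost without unstimulated replicate 2 (0.0590), 3 (0.0818) or 4 (0.102), without H-CM replicate 1 (0.0564) and in the model of all 36 libraries (0.763). At 6 h, the 4 H-CM libraries (0 to 22.4 CPM) measured below the 4 unstimulated ones (23.5 to 44.4 CPM), as for 1.29% of the genes tested, and the test did not pass (adjusted p = 1). The 0 was that of H-CM replicate 4, with 13518 counts, where 3 counts stood for 98.1 CPM, so its place cannot be told. Unstimulated replicate 3 had 24.4 CPM from 5 reads.

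Smooth muscle markers were lower in stimulated than in unstimulated EGCs at 24 h, as Tnfrsf11b was, and differed from it elsewhere. The sum of Acta2, Myh11, Tagln, Cnn1 and Des was 7463 to 8577 CPM in unstimulated, 3425 to 4202 CPM with H-CM and 1762 to 2631 CPM with TME-CM at 24 h. All 5 fell in both stimulated groups against unstimulated EGCs at 24 h and in TME-CM at 12 h, where 0 of 5 were called in H-CM by edgeR. In TME-CM against H-CM, 4 of 5 fell at 24 h and 2 of 5 at 12 h, where Tnfrsf11b was not called. In unstimulated EGCs the median sum was 4713 CPM at 12 h and 7964 CPM at 24 h, beside Tnfrsf11b means of 64.0 and 76.1 CPM. At 6 h the median sum was 2566 CPM in TME-CM and 2286 CPM in unstimulated EGCs, with overlapping ranges. The Tnfrsf11b means of these 2 groups were 16.5 and 34.0 CPM. The part of these markers in the values of Tnfrsf11b was not tested. In these bulk libraries fewer cells of a type and less RNA per cell cannot be told apart.

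**Figure D3:**
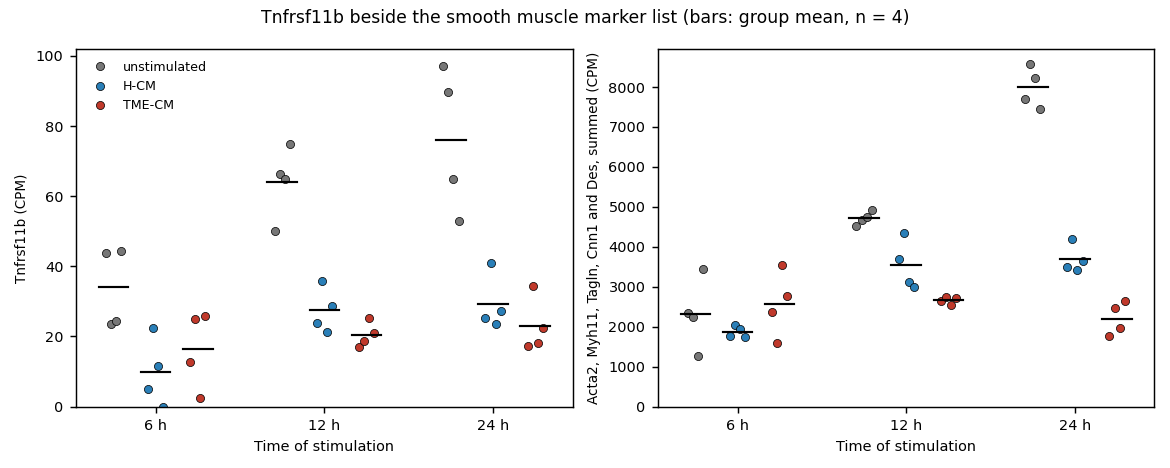
Tnfrsf11b (left, CPM) and the sum of 5 smooth muscle markers (right, CPM) in each library against the time of stimulation, with bars for the mean of 4 libraries. At 12 and 24 h the unstimulated libraries are highest in both panels, and the TME-CM libraries of 24 h hold the lowest marker sums of that time, from 1762 to 2631 CPM.

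The change of the TME-CM effect over H-CM between 12 h and 24 h was tested in 1 model of 16 libraries. By edgeR, 0 of the 7 members and 0% of the 12702 genes tested were called, with 1 member and 358 genes at an unadjusted p under 0.05 and 0 calls by DESeq2. The member was Tnfrsf12a, with a change of 1.28 ± 0.55 (unadjusted p = 0.0301), which was 0.54 without H-CM replicate 3 of 12 h. The changes of Tnfrsf9 (0.51 ± 1.15) and Fas (-0.67 ± 0.84) were smaller than their standard errors. Between 12 h and 24 h within a condition, 0 of the 7 members were called by edgeR in unstimulated (background 0.0153%), H-CM (0.00763%) or TME-CM EGCs (0.626%). DESeq2 called 0 of 6, 0 of 7 and 0 of 8. At an unadjusted p under 0.05 by edgeR were 0, 1 and 0 members, beside 694, 817 and 1034 of 13105 genes. The 1 was Tnfrsf12a in H-CM (-1.12 ± 0.35, adjusted p = 0.523), with -0.38 and an adjusted p of 0.998 without H-CM replicate 3 of 12 h and an adjusted p of 0.000972 without the filter.

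Around the members, 77 further genes of the TNF pathway were followed, of which 51 were tested at 12 h and 53 at 24 h. At 24 h, 3 were higher and 1 lower in TME-CM than in H-CM EGCs (background 2.75% and 2.65%), and the median of those tested was 0.12 on the log2 scale, beside 0.0049 over all genes tested. At 12 h, 2 were higher and 1 lower (1.22% and 0.675%), with a median of 0.31 beside -0.0011. At 6 h, 0 of 38 were called by edgeR (background 0.0972%), with 7 at an unadjusted p under 0.05, beside 562 of 9256 genes.

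Cd40, a TNF receptor known from antigen-presenting cells, rose from 18.5 ± 6.20 CPM in H-CM to 69.0 ± 21.8 in TME-CM EGCs at 12 h (1.89 ± 0.36, adjusted p = 0.00583, edgeR) and from 13.4 ± 1.63 to 34.6 ± 8.84 at 24 h (1.35 ± 0.22, adjusted p = 0.000524). The lowest TME-CM library was above the highest H-CM library at both times, as for 4.01% of the genes tested at 12 h and 5.47% at 24 h. Its ligand gene Cd40lg had no read in H-CM or TME-CM EGCs at 12 h and 24 h. Of the 21 listed receptors, Cd40 was the 1 called in this comparison, among 9 tested at 12 h and 11 at 24 h. Ngfr, the neurotrophin receptor that enteric glia carry, differed by -0.03 ± 0.13 at 24 h (adjusted p = 0.953), and Ltbr by -0.08 ± 0.25 (0.931).

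Tnfsf15, a ligand gene, was called at 24 h, rising from 10.1 ± 2.51 CPM with H-CM to 25.7 ± 4.09 CPM with TME-CM (1.35 ± 0.27, adjusted p = 0.00316, edgeR). At 12 h its difference of 1.002 ± 0.39 was not called (adjusted p = 0.316). It was 1 of 3 listed ligands with enough reads to test out of 16, beside Tnfsf12 and Eda.

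Tnip1, a partner of the ubiquitin-editing enzyme A20 that restrains NF-kB, was the 1 of 7 feedback genes called. It rose from 54.0 ± 13.7 to 110 ± 22.7 CPM at 12 h (1.02 ± 0.23, adjusted p = 0.0189) and from 52.8 ± 5.14 to 94.2 ± 14.4 at 24 h (0.85 ± 0.15, adjusted p = 0.000881, edgeR). Tnfaip3, the gene of A20 itself, differed by 1.27 ± 0.71 at 24 h and was not called (adjusted p = 0.410), nor was Tnfaip6 (1.45 ± 0.58, adjusted p = 0.196). Timp3, an inhibitor of the protease that sheds TNF and its receptors, was lower in TME-CM than in H-CM EGCs, at 253 ± 42.6 against 493 ± 56.1 CPM at 12 h (-0.96 ± 0.17, adjusted p = 0.00280) and 272 ± 43.9 against 465 ± 38.8 at 24 h (-0.77 ± 0.13, adjusted p = 0.000438, edgeR). It shares 1733 exon bases with Syn3 on the opposite strand. Adam17, the gene of that protease, was higher than in unstimulated EGCs at 24 h (0.81 ± 0.16, adjusted p = 0.00165) and not called over H-CM (0.21 ± 0.16, adjusted p = 0.602).

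Adaptors, death effectors and kinases were not called between the media: 0 of 12, 0 of 8 and 0 of 9 at 24 h by edgeR. Of all genes tested, 5.4% were called there, so 0 calls in lists this short lie near that share. Birc3, an inhibitor of apoptosis that NF-kB induces, differed by 1.53 ± 0.48 (adjusted p = 0.0727), Casp8 by 0.62 ± 0.24 (0.166) and Mlkl, the effector of necroptosis, by 1.06 ± 0.47 (0.254). Against unstimulated EGCs at 24 h, 10 of the 53 genes were higher in TME-CM and 1 lower (background 4.82% and 4.7%), while in H-CM 2 were higher and 1 lower (1.07% and 0.96%). The 10 were Tnfsf15, Cd40, Tnfrsf23, Birc2, Birc3, Mlkl, Tnip1, Tnfaip2, Adam17 and Rhbdf2. Tnfrsf23 (1.03 ± 0.17, adjusted p = 0.000168) is related to Tnfrsf22 and Tnfrsf26, and the assignment of reads among them was not checked.

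**Figure D4:**
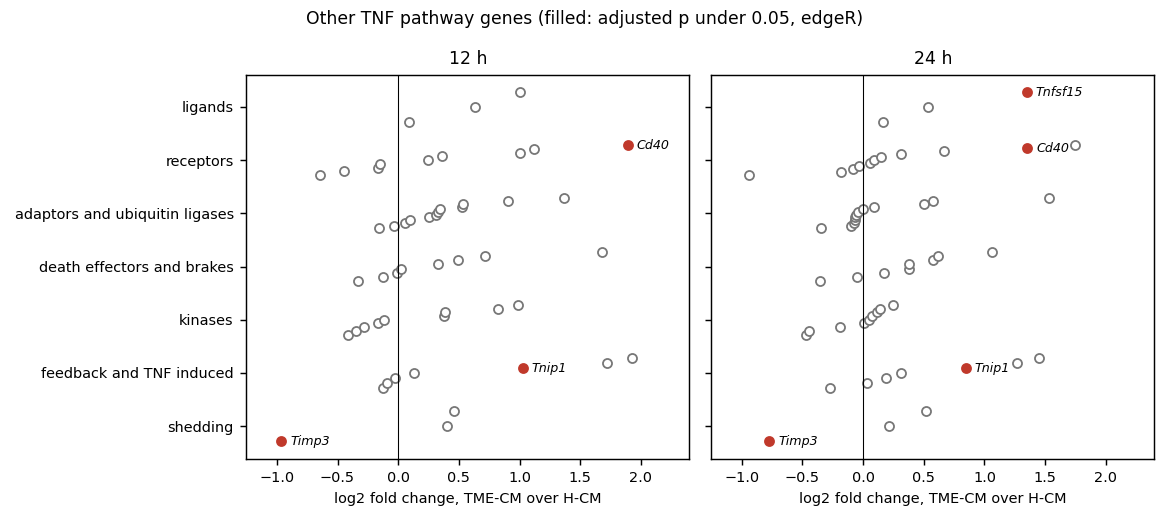
Log2 fold changes of TME-CM over H-CM for the other TNF pathway genes tested at 12 h and 24 h, 1 point per gene grouped by role and filled where the adjusted p is under 0.05. Cd40, Tnip1 and Timp3 are filled at both times and Tnfsf15 at 24 h.

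To place Tnfrsf9 and Fas among all genes, group means of log2 CPM over the 6 groups of 12 h and 24 h were centred and compared with those of 3229 genes that varied by at least 1 on the log2 scale. The profiles nearest to Tnfrsf9, by root mean square difference, were those of S100a8, the gene of a calprotectin subunit (0.22), of Mmp9, a gelatinase gene (0.28), and of Ptgs2os2, a noncoding RNA gene (0.31). Tnfrsf9 itself ran from -1.74 in unstimulated to 2.90 in TME-CM EGCs at 24 h on this centred scale, and S100a8 from -1.81 to 2.74. The profiles nearest to Fas were those of Rspo3, a gene of a Wnt signal enhancer (0.24), Ifi47, an interferon-induced GTPase gene (0.37), and Map3k8, a kinase gene (0.38). Fas reached 1.70 at 12 h and 1.68 at 24 h in TME-CM EGCs, whereas Tnfrsf9 was at 1.98 and 2.90. These likenesses are descriptions over 6 group means that share their libraries.

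**Figure D5:**
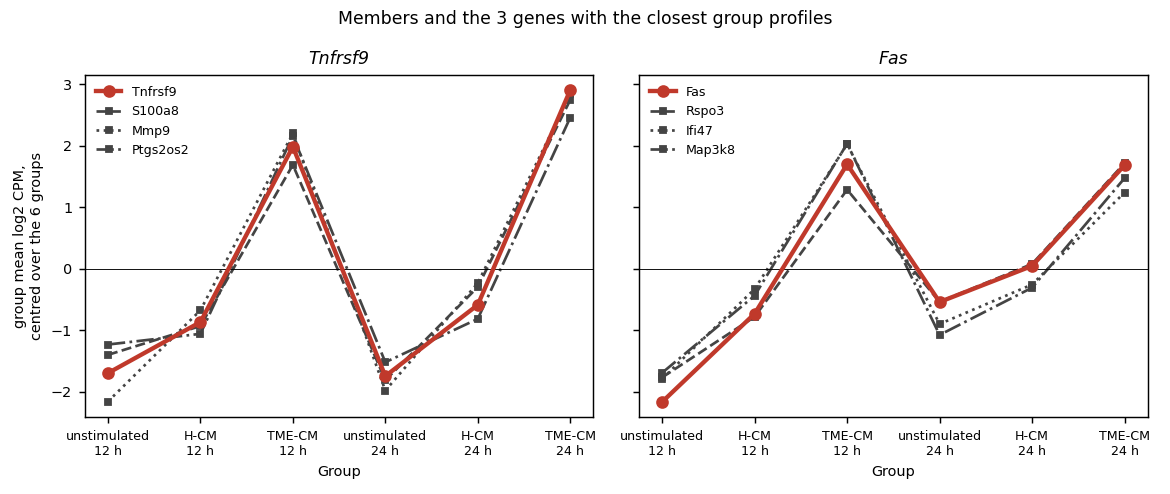
Centred group means of log2 CPM (vertical axis) over the 6 groups of 12 h and 24 h for Tnfrsf9 (left) and Fas (right), each with the 3 genes of most similar profile. In both panels the lines peak in the TME-CM groups, with Tnfrsf9 at 2.90 and Fas at 1.68 at 24 h.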

How the data were processed

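Gene expression was measured with QuantSeq 3′ mRNA libraries in 36 samples, 4 in each of 9 groups taken from the labels. The authors trimmed reads with fastq-mcf, checked them with FastQC (version 0.11.7), aligned them to mm10 with HISAT2, discarded multi-mapping reads and deposited the HT-seq counts per gene symbol without normalization. The gene annotation, strand setting and any molecular identifiers were not given in the sources used here. The main test was that of edgeR 4.0.16 in R 4.3.3 (filterByExpr with a minimum count of 10, TMM, robust quasi-likelihood F-test) on these counts, in 1 model per time point over 12 libraries, and DESeq2 1.42.0 was an alternative. Standard errors are the log2 difference divided by the square root of F. The study's own tests used DESeq2. The procedure was tested on simulated data. The members, gene lists and tests were chosen with earlier results of these data known. Named genes are the 9 members, pathway genes called between TME-CM and H-CM at 12 or 24 h with up to 4 others per list, and for Tnfrsf9 and Fas the 3 nearest profiles (prior count 2). The main test did not pair libraries by replicate number. Alternatives were other size factors, no filter, no Yam1, DESeq2, a replicate block, other models, and each library left out. Leaving out both 6 h libraries under 300000 counts was an alternative added after the data were seen. Positions are from GENCODE vM21 and promoter windows from RefSeq. The glial list is given without 1 marker, which is not reported here.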

Additional observations from a re-analysis of the deposited data

Results flagged for a closer look

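In 7 of the 75 sets of 4 libraries examined, the highest or lowest library lay apart from the other 3 by Dixon's ratio. Chance alone flags about 1 in 20 sets of normally distributed values. Low counts are not so distributed, so that rate does not apply to the 75 sets. Of the 7, 3 values belong to Tnfrsf12a: 329.0 CPM in unstimulated replicate 4 at 6 h (others 29.3 to 41.0), 155 CPM in H-CM replicate 3 at 12 h (36.03 to 46.8) and, as the lowest, 19.2 CPM in H-CM replicate 2 at 6 h (30.6 to 32.9). Tnfrsf9 reached 29.3 CPM in unstimulated replicate 3 at 6 h (0 to 1.35), from 6 reads in a library of 256453 counts. The other 3 were single libraries with reads where the rest had none, which fixes the ratio at 1 whatever the number of reads. They were Tnfrsf9 at 0.416 CPM in unstimulated replicate 4 at 12 h (3 reads), Fas at 0.457 CPM in H-CM replicate 2 at 6 h (1 read) and Tnf at 0.200 CPM in TME-CM replicate 1 at 6 h (1 read).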

How the results depend on the processing

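Depth limits the 6 h values most, where a count of 3 stood for 0.546 to 98.1 CPM. DESeq2's size factors, leaving out Yam1 and fitting only the 2 groups compared left every count of called members within 1.5 times the value reported. Over all genes kept, 1, 2 and 3 of 12 same-numbered pairs of libraries correlated above 0.1 at 6, 12 and 24 h. Of 36 pairs with different numbers, 2, 3 and 4 did. The median correlations at 24 h were 0.0688 and -0.0111. Immune marker sums at 24 h were higher in replicates 1 and 2 than in 3 and 4. For replicates 1 to 4 they were 211, 196, 66.4 and 52.9 CPM in unstimulated EGCs. They were 217, 342, 125 and 82.2 CPM with H-CM, and 216, 364, 105 and 70.6 CPM with TME-CM. The replicate block kept all 13 counts of called members, with 2 for TME-CM against H-CM and 5 against unstimulated EGCs at 24 h. Without the filter on low counts, 1 member was called for TME-CM against H-CM at 6 h (Tnfrsf12a), 2 at 12 h (Fas, Tnfrsf12a) and 1 for 24 h against 12 h in H-CM (Tnfrsf12a). DESeq2 called 1 member for TME-CM against H-CM at 12 h (Tnfrsf9). In 1 model of all 36 libraries the counts were 2 for TME-CM against H-CM at 6 h, 1 for TME-CM against unstimulated at 6 h, 0 for H-CM against unstimulated at 12 h, and at 24 h 0 for TME-CM against H-CM, 2 for TME-CM against unstimulated and 0 for H-CM against unstimulated. The cause was not tested. With 1 library left out, 1 to 2 members were called for TME-CM against H-CM at 24 h and 0 to 1 for H-CM against unstimulated at 12 h.

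Reversed signs were all of differences that were not called. Tnfrsf10b turned to -0.27 (block) for TME-CM against H-CM at 6 h and to -0.0282 (size factors), -0.51 (block), -0.0215 (DESeq2) and -0.17 (without both libraries under 300000 counts, chosen after seeing the data) for TME-CM against unstimulated at 6 h. Leaving out single libraries gave -0.99 to 1.01 and -1.39 to 0.41 for these. The same for TME-CM against H-CM gave Tnfrsf10b -0.0566 to 0.33 at 12 h and -0.0066 to 0.20 at 24 h, Tnfrsf1b -0.26 to 0.66 at 6 h and Tnfrsf1a -0.0152 to 0.19 at 12 h. Against unstimulated EGCs it gave Tnfrsf12a -0.0039 to 1.90 (TME-CM, 6 h) and -0.30 to 0.0143 (TME-CM, 24 h) and Tnfrsf1b -0.0604 to 0.90 (H-CM, 12 h), and for the change of Tnfrsf9 from 12 h to 24 h -0.10 to 1.39. Over all genes, edgeR and DESeq2 called 9 and 19 genes for TME-CM against H-CM and 42 and 97 against unstimulated at 6 h, 230 and 375 for TME-CM against H-CM and 49 and 99 for H-CM against unstimulated at 12 h, 258 and 412 for the latter at 24 h, and 2 and 19, 1 and 17, and 82 and 155 for 24 h against 12 h in unstimulated, H-CM and TME-CM EGCs. For TME-CM against unstimulated they called 536 and 705 at 12 h and 1210 and 1374 at 24 h. For TME-CM against H-CM at 24 h these counts were 686 and 832.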
